A study of Arabidopsis thaliana with 9 samples.

Results

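The genes described here flank AT1G67105, the gene of the long noncoding RNA ASCO, on chromosome 1 of Arabidopsis thaliana. They are the 83 gene models with locus numbers between AT1G66800 and AT1G67500, AT1G67105 itself left out, of 33602 models in the count tables. There are 35 models before AT1G67105 and 48 after it in the order of locus numbers, and they span 372 kb of the TAIR10.1 assembly. In the RefSeq annotation of that assembly, 74 are protein coding, 3 are noncoding RNAs, 2 are microRNA precursors and 4 are pseudogenes. They were chosen by position and not by any measured value, though with earlier results of these data known.

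A long noncoding RNA is a transcript that is not translated. Some act on the genes beside them, in cis, through the act of transcription or through proteins that the RNA holds at its own locus. Others act at distant places, in trans. ASCO is known as a decoy for nuclear speckle RNA-binding proteins, which regulate alternative splicing in plants. The RNA levels of the genes around the native locus are described here across genotypes that differed in the counted level of ASCO. They do not measure transcription at the locus itself.

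RNA sequencing was done on whole seedlings grown in vitro, with 3 libraries per genotype. The 35S-ASCO seedlings overexpress AT1G67105, are also labelled as a promoter trap, and carry a label of 16 days at growth stage 1.04. The 35S promoter of cauliflower mosaic virus is active in most plant cells. The RNAi-ASCO seedlings are labelled as a knock-down of AT1G67105 by RNA interference, with replicates 1 and 2 labelled 4 days and replicate 3 labelled 16 days, and are called the RNAi-labelled libraries below. The wild-type (WT) seedlings are labelled 16 days at stage 1.04, with no transgene named. The ecotype, the number of independent transgenic lines, the constructs and their places in the genome are not given in the sources used here. Nothing says whether the 3 libraries of a genotype came from separate plates of plants beyond their being called biological replicates, so p-values measure the spread between these libraries.

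Between 27044702 and 126355312 read pairs were counted per library. A count of 3 pairs, used as the detection floor, corresponds to between 0.0237 and 0.11 TMM-scaled CPM, the unit of levels below, which is the count of pairs divided by a library total scaled for composition, and covers counting error only. Leaf genes such as LHCB1.3 and RCA were abundant in every library, with a summed level of 5 leaf markers of 15400 to 17900 CPM in 35S-ASCO, 16800 to 17800 CPM in the RNAi-labelled libraries and 13400 to 15900 CPM in WT. The 6 root markers summed to 32.9 to 40 CPM in 35S-ASCO, 35.4 to 39.6 CPM in the RNAi-labelled libraries and 38.5 to 41.8 CPM in WT. The 3 floral organ identity genes summed to 0.645 to 0.974 CPM in 35S-ASCO, 0.741 to 1.24 CPM in the RNAi-labelled libraries and 1.18 to 1.72 CPM in WT. Of the 4 seed storage genes, SESA3 and CRU3 had 0 pairs in all 9 libraries, and the sums were at most 0.168 CPM in 35S-ASCO, 0.0861 CPM in the RNAi-labelled libraries and 0.22 CPM in WT. Among all these markers LHCA1, a light-harvesting protein, was higher in the RNAi-labelled libraries than in WT (log2 fold change 0.50, edgeR adjusted p = 0.0226). EXPA7, a root hair expansin, was lower there (-0.47 on the log2 scale, edgeR adjusted p = 0.038), and no marker passed the threshold in 35S-ASCO against WT. Whether tissue proportions had a part in the results on the flanking genes was not tested, and fewer cells of a type cannot be told apart from less RNA per cell in whole seedlings.

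AT1G67105 is annotated in TAIR10.1 at chr1:25057479-25058264 on the plus strand, as a noncoding RNA gene of 1 exon. It had 3539, 3657 and 3653 CPM in 35S-ASCO, 16.9, 19.5 and 22.9 CPM in the RNAi-labelled libraries, and 6.54, 3.65 and 2.48 CPM in WT. No 2 of the 3 groups overlapped. In 35S-ASCO it exceeded WT by 9.84 on the log2 scale (edgeR adjusted p = 7.02e-07, SE 0.316). In the RNAi-labelled libraries it was also higher than in WT, by 2.33 (edgeR adjusted p = 0.000867, SE 0.253), which goes against the knock-down label and is why the group is called by its label only. Pairs from the native transcript cannot be separated from pairs of a construct in these counts. Of its 737 windows of 50 bases, 0 occur elsewhere in the genome, and the longest stretch it shares with a flanking model has 9 to 15 bases, depending on the model.

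The upstream sequences of the genes next to AT1G67105, and of AT1G67460, whose level differed most from WT among the flanking genes in the RNAi-labelled libraries, place the genes on the chromosome. LBD40 ends 2614 bases before AT1G67105 on the same strand, and CYP735A2 lies 3408 bases after it on the opposite strand, so its upstream region faces away from AT1G67105. The windows hold the 250 bases before each annotated start, read 5′ to 3′ on the gene's strand in TAIR10.1 (RefSeq). For AT1G67460 the window is the whole stretch of 217 bases up to the start of AT1G67470, which is transcribed in the other direction. Capitals mark the letters TATAAA on either strand, the core of the TATA box.
LBD40, chr1:25053423-25053672, plus strand: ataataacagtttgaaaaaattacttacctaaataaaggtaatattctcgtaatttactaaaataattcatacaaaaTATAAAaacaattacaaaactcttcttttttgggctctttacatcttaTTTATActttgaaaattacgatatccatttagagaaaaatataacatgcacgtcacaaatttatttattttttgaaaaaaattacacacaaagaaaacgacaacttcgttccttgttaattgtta
AT1G67105, chr1:25057229-25057478, plus strand: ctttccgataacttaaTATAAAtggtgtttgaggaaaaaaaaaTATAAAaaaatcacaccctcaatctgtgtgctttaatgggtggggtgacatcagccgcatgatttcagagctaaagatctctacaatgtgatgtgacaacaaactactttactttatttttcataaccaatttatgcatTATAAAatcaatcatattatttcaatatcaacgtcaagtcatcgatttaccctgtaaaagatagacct
CYP735A2, chr1:25065447-25065696, minus strand: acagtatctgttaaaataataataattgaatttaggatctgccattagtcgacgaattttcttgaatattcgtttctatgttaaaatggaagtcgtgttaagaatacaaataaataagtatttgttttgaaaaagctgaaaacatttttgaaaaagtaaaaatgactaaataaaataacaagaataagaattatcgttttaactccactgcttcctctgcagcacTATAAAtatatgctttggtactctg
AT1G67460, chr1:25271905-25272121, minus strand: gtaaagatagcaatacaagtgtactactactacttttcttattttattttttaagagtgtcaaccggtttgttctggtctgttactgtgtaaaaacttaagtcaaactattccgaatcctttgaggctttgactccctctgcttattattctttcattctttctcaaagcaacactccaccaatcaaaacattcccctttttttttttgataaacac
The letters TATAAA occur 2 times before LBD40, 3 times before AT1G67105, 1 time before CYP735A2 and 0 times before AT1G67460. Of 37897 genes with such a window in the genome, 44.6% hold them within 250 bases and 40.7% within 217 bases. The G-box CACGTG, the W-box core TTGACC and the evening element AAAATATCT were searched on both strands and have no match in these 4 windows. They occur in 5.39%, 11.5% and 2.11% of all 250-base windows. No printed match overlaps another, and a missing match says only that the letters are not in the window.

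Of the 83 flanking models, 65 had enough pairs to be tested, 29 before and 36 after AT1G67105. Mean levels in WT, per kilobase of model, ran from 0.193 to 9959 CPM per kb with a median of 8.93 CPM per kb. The highest was that of RBCS1A, a small subunit of the carbon-fixing enzyme Rubisco, with 8973 ± 713 CPM per kb in 35S-ASCO, 9326 ± 264 CPM per kb in the RNAi-labelled libraries and 9959 ± 832 CPM per kb in WT (SD, n = 3 each). AT1G67430, a ribosomal protein of the large subunit, followed with 426 ± 31.7 CPM per kb in 35S-ASCO, 433 ± 3.73 CPM per kb in the RNAi-labelled libraries and 483 ± 25.7 CPM per kb in WT. AT1G67280, of the glyoxalase superfamily, had 141 ± 2.60 CPM per kb in 35S-ASCO, 141 ± 1.25 CPM per kb in the RNAi-labelled libraries and 138 ± 3.58 CPM per kb in WT. The other models among the 10 highest in WT were SVL2, AT1G67350 (a subunit of mitochondrial complex I), AT1G67480 (a kelch repeat protein), AT1G67250 (a proteasome maturation factor), the MIR414 precursor, AT1G66940 (kinase-like) and AT1G66820 (glycine-rich), between 38.9 and 123 CPM per kb. Of these 10, SVL2 and AT1G66940 passed the test in at least 1 comparison. Of all genes, 11.8% passed in the RNAi-labelled libraries against WT, 1.67% in 35S-ASCO against WT and 6.75% between the lines. The share of all genes that passed in at least 1 comparison was not computed. The model counted under MIR414 has 596 bases, against 108 bases for the RefSeq precursor, so its level may not be that of the precursor. Levels thus differed by orders of magnitude between neighbours while the 3 genotypes lay close together for most of them.

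**Figure D1:**
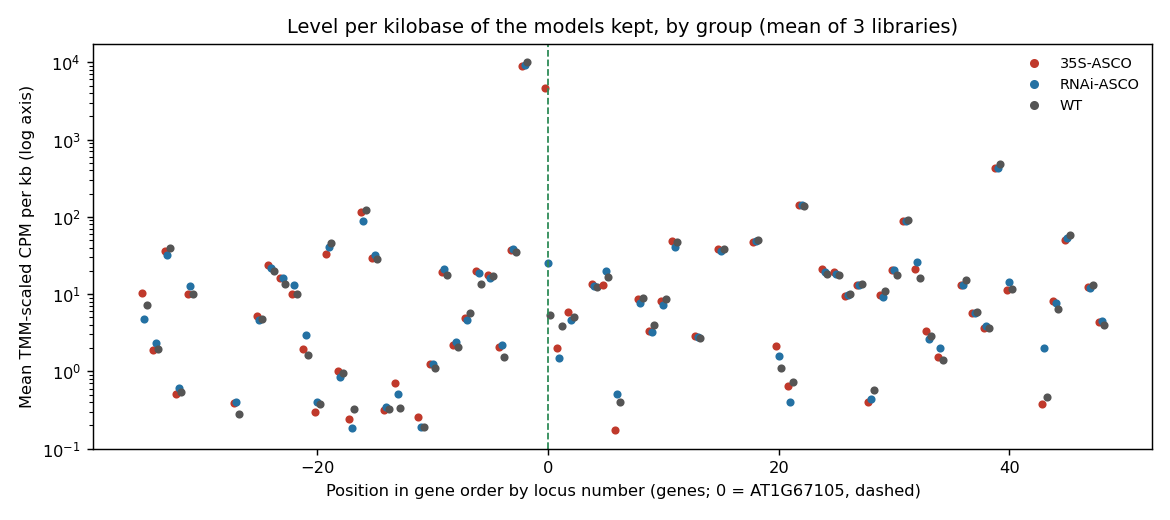
Mean TMM-scaled CPM per kilobase (log axis) of the flanking models that had enough pairs, against position in gene order from AT1G67105 (dashed line at 0, its own values included), with 35S-ASCO, the RNAi-labelled libraries and WT as coloured points drawn side by side. AT1G67105 is the position where the groups lie furthest apart, and RBCS1A, 2 genes before it, is the highest flanking gene at 8973 CPM per kb in 35S-ASCO, 9326 in the RNAi-labelled libraries and 9959 in WT.

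The 18 models with too few pairs had at most 78 pairs over the 9 libraries together and at most 20 in any library. They were LBD40, TCP1, HAC2, GLOX1 and the MIR839 precursor, the F-box models AT1G67130, AT1G67160, AT1G67390, AT1G67450 and AT1G67455, and the noncoding RNA AT1G67238. AT1G66852, AT1G66855 and AT1G66870 of the X8 carbohydrate-binding family, the lipid-transfer protein model AT1G66850 and the pseudogenes AT1G67010, AT1G67200 and AT1G67240 made up the rest. AT1G66850 and AT1G66870 had 0 pairs in every library. Of the 6 F-box models of the region, AT1G67190 had enough pairs to be tested. Differences in these 18 models were not detectable at this depth.

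The genes immediately around AT1G67105 were compared first, to see whether the genes closest to the locus differed between genotypes. LBD40, a transcription factor of the LOB-domain family and the nearest gene before AT1G67105, was close to the detection floor in all genotypes. It had 18 pairs in the 3 libraries of 35S-ASCO, 5 in those labelled RNAi-ASCO and 11 in WT, and its levels were 0.0712, 0.14 and 0.0431 CPM in 35S-ASCO, 0.0892, 0.0218 and 0.0172 CPM in the RNAi-labelled libraries, and 0.0735, 0.0636 and 0.0521 CPM in WT. The groups overlapped, and a fit with no filter gave LBD40 an edgeR adjusted p of 0.902 in 35S-ASCO against WT and 0.65 in the RNAi-labelled libraries against WT. A rise of AT1G67105 by 9.84 on the log2 scale came with a level of LBD40 that stayed at 0.14 CPM or below.

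CYP735A2, the nearest gene after AT1G67105, encodes the cytokinin hydroxylase that makes trans-zeatin-type cytokinins. It had 3.15, 1.97 and 2.58 CPM in the RNAi-labelled libraries, against 4.04, 6.24 and 10.09 CPM in WT. Its log2 fold change there was -1.43, a fall (edgeR adjusted p = 0.0184, SE 0.311). In 35S-ASCO it had 2.66, 3.90 and 3.81 CPM, a log2 fold change from WT of -1.01 (SE 0.298) that did not pass the threshold (edgeR adjusted p = 0.121) and did with DESeq2. Without WT replicate 3 this value was -0.62 (edgeR adjusted p = 0.256), under 2-fold. Every library of both lines lay below every WT library, and both comparisons share the same 3 WT libraries, whose own values are widely spread. The lines differed from each other by 0.42 (edgeR adjusted p = 0.467, SE 0.315), and their values overlapped. Without RNAi-ASCO replicate 2, the fall in the RNAi-labelled libraries was -1.27 and no longer passed (edgeR adjusted p = 0.081), and the 16-day libraries alone gave -1.41 (edgeR adjusted p = 0.309).

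Before AT1G67105, RBCS1A had 8448, 9236 and 9908 CPM in 35S-ASCO, 9713, 9717 and 9246 CPM in the RNAi-labelled libraries, and 10710, 9224 and 10690 CPM in WT. The 3 groups overlapped, with log2 fold changes of -0.15 in 35S-ASCO against WT (edgeR adjusted p = 0.377, SE 0.082) and -0.09 in the RNAi-labelled libraries against WT (edgeR adjusted p = 0.499, SE 0.082). ABA4, which acts in neoxanthin synthesis on the way to abscisic acid, had 37.8 ± 1.31 CPM in 35S-ASCO, 39.3 ± 1.39 CPM in the RNAi-labelled libraries and 35.9 ± 1.37 CPM in WT (SD, n = 3 each) and passed in neither line. AT1G67060, a peptidase-like gene, had 19.4 ± 0.356 CPM in 35S-ASCO, 17.3 ± 1.80 CPM in the RNAi-labelled libraries and 18.7 ± 0.629 CPM in WT and did not pass either. DIN9, a mannose-6-phosphate isomerase known as induced in darkness, had 3.78, 4.04 and 3.62 CPM in the RNAi-labelled libraries, against 2.50, 2.58 and 3.06 CPM in WT. It rose there by 0.49 (edgeR adjusted p = 0.031, SE 0.122), and this call was lost on leaving out any 1 of the 3 RNAi-labelled libraries, WT replicate 1 or WT replicate 2, with log2 fold changes from 0.44 to 0.53. In 35S-ASCO DIN9 had 3.90, 3.39 and 3.62 CPM, also above all WT libraries, at 0.43 on the log2 scale (edgeR adjusted p = 0.105, SE 0.12).

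After CYP735A2, AT1G67120 is a midasin-like gene, midasin being a large ATPase of ribosome assembly. It had 96.6, 96.7 and 93.2 CPM in 35S-ASCO, 76.7, 71.6 and 81.0 CPM in the RNAi-labelled libraries, and 75.5, 91.7 and 80.6 CPM in WT. All 35S-ASCO libraries were above all others, and the difference passed the test against the RNAi-labelled libraries (log2 fold change 0.32, edgeR adjusted p = 0.0313, SE 0.0738) and not against WT (0.21, edgeR adjusted p = 0.185, SE 0.0736). The call was lost in 5 of the 9 fits that left out 1 library, those without any 1 of the 35S-ASCO libraries and without RNAi-ASCO replicate 1 or 2, where the log2 fold change was 0.28 to 0.34. SWEETIE, a HEAT-repeat gene known for its part in sugar balance, had 92.0 ± 2.19 CPM in 35S-ASCO, 87.9 ± 1.53 CPM in the RNAi-labelled libraries and 83.9 ± 2.22 CPM in WT and passed in neither line. The uncharacterised AT1G67148 had 5.56 ± 1.62 CPM in 35S-ASCO, 8.49 ± 1.43 CPM in the RNAi-labelled libraries and 7.02 ± 2.16 CPM in WT and did not pass. AT1G67130, an F-box model, had 3 pairs in 35S-ASCO, 0 in the RNAi-labelled libraries and 1 in WT. Of the 10 nearest models, 8 were tested. In the RNAi-labelled libraries against WT, 2 of these 8 passed, DIN9 and CYP735A2, beside 11.8% of all 22719 genes tested.

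Across the whole region, 12 of the 65 tested genes (18.5%) differed between the RNAi-labelled libraries and WT at an edgeR adjusted p under 0.05, where 11.8% of all 22719 genes tested did. Higher in the RNAi-labelled libraries were 9, PMI2, AT1G66900, AT1G66910, AT1G67050, DIN9, AT1G67360, ASY1, emb1688 and AT1G67460, beside 6.96% of all genes. Lower were 3, SVL2, CYP735A2 and AT1G67170, or 4.62% of the tested flanking genes beside 4.82% of all genes. The log2 fold changes of the 12 had a median size of 0.47 and ran from 0.22 to 2.05 in size, with 8 under 0.5. In all 12 the 3 RNAi-labelled libraries did not overlap the 3 WT libraries, as in 27 of the 65 flanking genes (41.5%) and 32.4% of all genes. Changes of at least 2-fold were fitted for CYP735A2 and AT1G67460, 3.08% of the flanking genes and 2.92% of all genes.

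The count of 12 moved with single libraries and with the age labels. It was 3 (4.62%, beside 4.34% of all genes) without RNAi-ASCO replicate 2, 6 (9.09%, beside 5.03%) without RNAi-ASCO replicate 1 and 7 (10.8%, beside 9.18%) without RNAi-ASCO replicate 3. It was 6 (9.09%, beside 5.98%) without WT replicate 1 and 7 (10.8%, beside 10%) without WT replicate 2, and it was highest at 15 (23.1%, beside 13.3%) without 35S-ASCO replicate 1. DESeq2 on all 9 libraries called 14 (21.5%, beside 14.6% of all genes). Among these were 11 of the 12, and also AT1G66800, AT1G66920 and SNC4. SVL2, AT1G67360 and AT1G67460 passed in all 9 fits that left out 1 library. When the libraries labelled 4 days were left out, so that 1 RNAi-labelled library was set against WT and assumed to vary like the others, 0 of 67 flanking genes passed (0.441% of all genes), and the log2 fold changes of the 12 were 0.16 to 1.99 in size. Their directions could not turn in that fit, because all 3 RNAi-labelled libraries lie on the same side of WT in these genes. For 3 of the 12 the log2 fold change was smaller by more than 1.5 times, at 0.21 for AT1G66910, 0.28 for ASY1 and 0.16 for emb1688, and in each of these the 16-day library is the lowest of the RNAi-labelled libraries. The labelled age and the genotype cannot be told apart for replicates 1 and 2.

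AT1G67460, which RefSeq names as a minichromosome maintenance (MCM) family protein, a name not checked here, rose most. It had 3.27, 3.38 and 3.10 CPM in the RNAi-labelled libraries, against 0.441, 0.774 and 1.04 CPM in WT. The groups lay far apart, and the log2 fold change was 2.05 (edgeR adjusted p = 0.00125, SE 0.242). In 35S-ASCO it had 0.673, 0.504 and 0.647 CPM, within the range of WT (log2 fold change -0.33, edgeR adjusted p = 0.539, SE 0.255). Set directly against the RNAi-labelled libraries, 35S-ASCO differed by -2.38 (edgeR adjusted p = 0.000612, SE 0.241). The library labelled 16 days had 3.10 CPM, next to 3.27 and 3.38 CPM in those labelled 4 days, and with 16-day libraries alone the log2 fold change against WT was 1.99 (edgeR adjusted p = 0.0811).

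AT1G67460 lies 43 genes and 211163 bases after AT1G67105, at chr1:25269428-25271904 on the minus strand, with 5 exons. The genes around it give its setting. AT1G67455, an F-box model that overlaps its end on the opposite strand, had 1 pair in 35S-ASCO, 2 in the RNAi-labelled libraries and 0 in WT. AT1G67470, a kinase gene that starts 217 bases away and is transcribed in the other direction, had 12.8, 12.2 and 9.23 CPM in 35S-ASCO, 11.2, 10.6 and 10.6 CPM in the RNAi-labelled libraries, and 8.45, 9.07 and 9.43 CPM in WT, and did not pass (log2 fold change 0.26, edgeR adjusted p = 0.186, SE 0.117 in the RNAi-labelled libraries against WT). The stretch between both starts is the fourth sequence printed above.

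emb1688, 3 genes closer to AT1G67105 and annotated to the same MCM family, is known from an embryo-lethal mutant. It had 24.8, 22.7 and 20.1 CPM in the RNAi-labelled libraries, against 18.7, 18.7 and 16.9 CPM in WT, and rose there by 0.32 (edgeR adjusted p = 0.0306, SE 0.0794). The call was lost without RNAi-ASCO replicate 1 or 2 or WT replicate 1 or 3, where the log2 fold change was 0.25 to 0.34, and with 16-day libraries alone it was 0.16. In 35S-ASCO emb1688 had 18.1, 18.4 and 17.3 CPM. The coding parts of emb1688 and AT1G67460 share an identical run of 31 bases, their longest exact match, printed here because both are annotated to 1 family.
emb1688, chr1:25265098-25265128, minus strand: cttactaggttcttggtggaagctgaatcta
AT1G67460, chr1:25271035-25271065, minus strand: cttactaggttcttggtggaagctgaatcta
Neither gene has a 50-base window that occurs elsewhere in the genome. The end of emb1688 overlaps AT1G67430 on the opposite strand, and use of strand in the counting is not stated, so its values are uncertain to that extent.

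AT1G67360 encodes a protein of the rubber elongation factor family, which coats lipid droplets in plants. It had 37.9, 29.0 and 28.2 CPM in the RNAi-labelled libraries, against 19.5, 22.2 and 16.7 CPM in WT, and rose there by 0.70 (edgeR adjusted p = 0.00986, SE 0.131). In 35S-ASCO it had 27.3, 24.2 and 23.8 CPM, which was above all WT libraries and below all those labelled RNAi-ASCO and did not pass against WT (0.37, edgeR adjusted p = 0.184). It overlaps AT1G67350 on the opposite strand, which had 75.8 ± 1.70 CPM in 35S-ASCO, 75.8 ± 3.10 CPM in the RNAi-labelled libraries and 79.5 ± 3.00 CPM in WT. ASY1, a HORMA-domain protein of the meiotic chromosome axis, had 4.87, 4.43 and 3.62 CPM in the RNAi-labelled libraries, against 2.79, 2.87 and 3.27 CPM in WT. It rose by 0.52 (edgeR adjusted p = 0.0379, SE 0.138), and this was lost without 35S-ASCO replicate 2, RNAi-ASCO replicate 1 or 2, or WT replicate 1 or 2, where the log2 fold change was 0.43 to 0.52. The antisense noncoding RNA AT1G67365 overlaps ASY1, so pairs of the one may have been counted for the other.

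SVL2, a glycerophosphodiester phosphodiesterase-like gene of the SHV3 family, which is known for cell wall organisation, had 246, 219 and 240.5 CPM in the RNAi-labelled libraries, against 308, 350.2 and 323 CPM in WT. It fell by 0.48 on the log2 scale (edgeR adjusted p = 0.00209, SE 0.0628), and in 35S-ASCO it had 303, 315 and 308 CPM, close to WT (-0.08, edgeR adjusted p = 0.526). Next to it, SNC4, a receptor-like kinase of immunity with a related extracellular part, had 106 ± 3.63 CPM in 35S-ASCO, 114 ± 6.98 CPM in the RNAi-labelled libraries and 101 ± 3.85 CPM in WT. SNC4 did not pass in edgeR, and DESeq2 called it in the RNAi-labelled libraries against WT. The remaining genes that rose in the RNAi-labelled libraries did so by 0.25 to 0.46. PMI2, which is needed for light-driven chloroplast movement, had 26.3 ± 0.648 CPM there and 20.9 ± 1.70 CPM in WT, and AT1G66900, a hydrolase of the alpha/beta family, had 22.5 ± 1.03 CPM there and 18.9 ± 0.989 CPM in WT. AT1G67050, a gene of the membrane-associated kinase regulator family, had 21.7 ± 2.57 CPM there and 15.8 ± 1.89 CPM in WT. AT1G67170 fell by 0.22 on the log2 scale (edgeR adjusted p = 0.049), a call lost in each of the 9 fits that left out 1 library. DIN9, PMI2, AT1G66900 and AT1G67050 lost theirs in 5 to 7 of the 9.

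**Figure D2:**
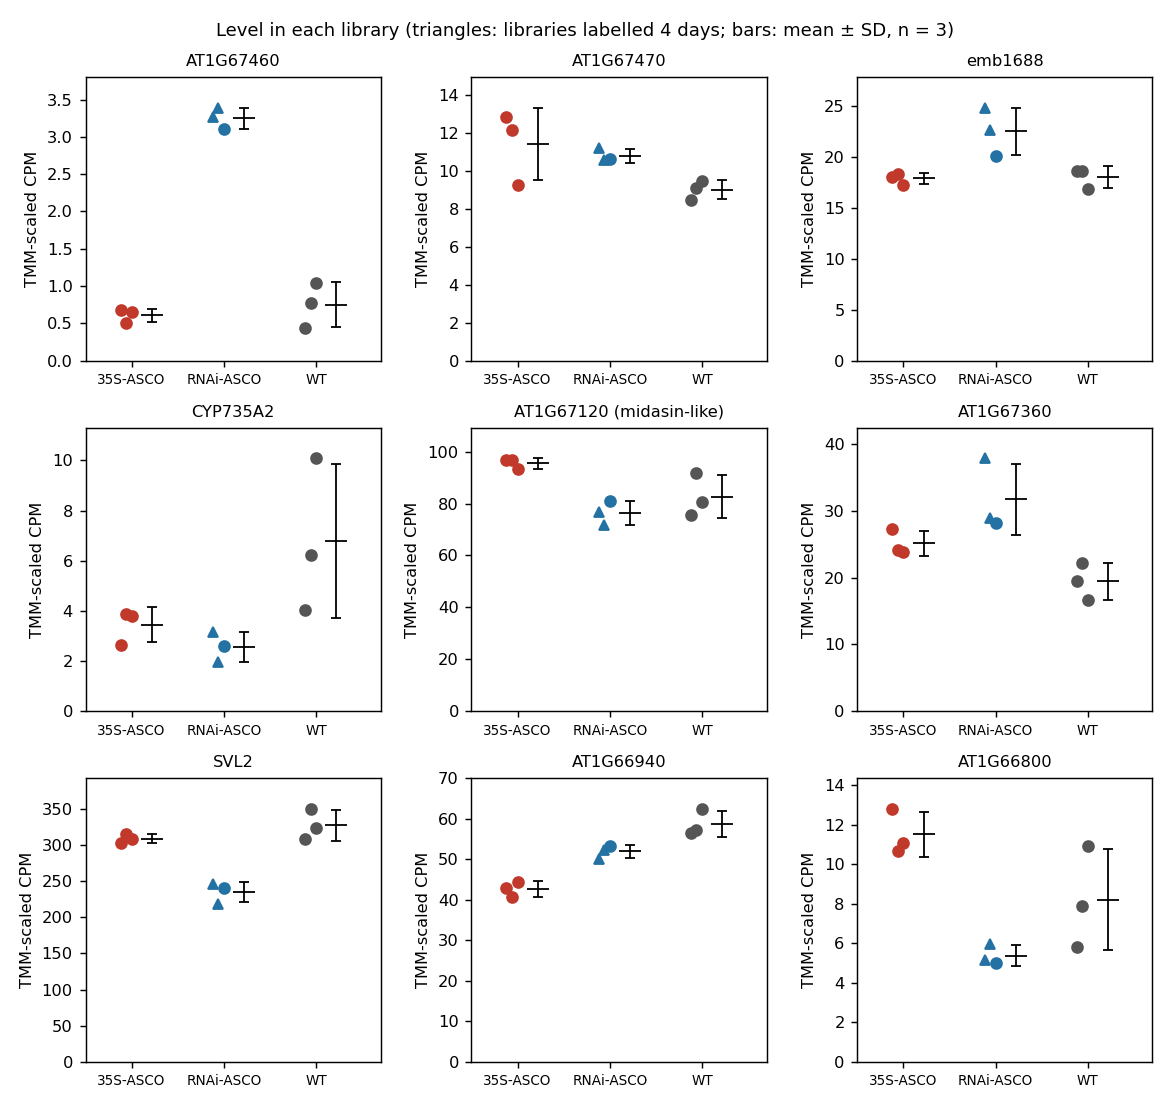
TMM-scaled CPM of 9 flanking genes in each library, with 35S-ASCO left, the RNAi-labelled libraries in the middle and WT right; triangles are the libraries labelled 4 days, and bars give mean ± SD of 3 libraries. AT1G67460 lies between 3.10 and 3.38 CPM in the RNAi-labelled libraries and at or below 1.04 CPM in all others, and CYP735A2 is below 4.04 CPM in every library of both lines.

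Several kinase genes lie 19 to 25 genes before AT1G67105. AT1G66910 had 28.5, 27.1 and 23.4 CPM in the RNAi-labelled libraries and 20.2 ± 0.533 CPM in WT, a rise of 0.38 (edgeR adjusted p = 0.0121, SE 0.0741) that was lost without RNAi-ASCO replicate 2. Its neighbour AT1G66920 had 6.39, 5.94 and 5.75 CPM there, against 2.83, 3.29 and 3.80 CPM in WT, and missed the threshold (0.85, edgeR adjusted p = 0.0547, SE 0.251). AT1G66920 did pass with DESeq2, and in edgeR with no filter, with single-read counts and with only the 6 libraries compared. It also passed without 35S-ASCO replicate 1 and without 35S-ASCO replicate 3. Both share sequence with other genes, with 17% and 15.2% of their 50-base windows found elsewhere and a common identical stretch of 263 bases. Reads with equally good alignments were removed by the authors, so the levels of both are uncertain. In total 9 flanking genes have the word kinase in their RefSeq product name, which leaves out SNC4, and all 9 were tested. Their median log2 fold change was 0.18 in the RNAi-labelled libraries against WT, with 1 higher and 0 lower, and 0.10 in 35S-ASCO against WT, with 0 higher and 1 lower. In 35S-ASCO against the RNAi-labelled libraries it was -0.26, with 0 higher and 2 lower. The median over all genes was -0.01 in both comparisons with WT and 0.00279 in the third. Of all genes, 6.96% were higher and 4.82% lower in the first comparison, 1.36% and 0.313% in the second, and 3.2% and 3.55% in the third. None of the 6 zinc-finger genes and none of the 3 tested noncoding RNA or microRNA models passed in any of the 3 comparisons. Of all genes, 11.8%, 1.67% and 6.75% passed, and with so few models an absence of calls cannot be told apart from these shares.

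In 35S-ASCO against WT, 1 of the 65 flanking genes (1.54%) passed the test, beside 1.67% of all genes. It was AT1G66940, a kinase-like gene 19 genes before AT1G67105, with 42.9, 40.7 and 44.5 CPM in 35S-ASCO, against 56.5, 57.3 and 62.6 CPM in WT. It fell by 0.46 on the log2 scale (edgeR adjusted p = 0.0111, SE 0.0562), with no overlap, while 0.313% of all genes passed as lower. The RNAi-labelled libraries lay in between with 50.1, 52.4 and 53.4 CPM and did not pass against WT (-0.18, edgeR adjusted p = 0.0686). Without 35S-ASCO replicate 2 the fall was -0.43 and missed the threshold (edgeR adjusted p = 0.0641), which left 0 flanking genes, beside 0.113% of all genes. The number was 3 (4.62%, beside 2.68% of all genes) without 35S-ASCO replicate 3 and 2 (3.08%, beside 1.39%) without WT replicate 3. AT1G66940 overlaps AT1G66930 on the opposite strand.

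With all 9 libraries and the filter on low counts, 0 flanking genes were higher in 35S-ASCO than in WT by edgeR's adjusted p, where 1.36% of all genes were. At an unadjusted p under 0.05, 20 of 65 (30.8%) differed in either direction, beside 17.4% of all genes, and in 19 (29.2%) the groups did not overlap, beside 21.9% of all genes. DESeq2 called 6 (9.23%, beside 5.79% of all genes), AT1G66940, AT1G66900, AT1G67000, AT1G67050, CYP735A2 and AT1G67480. AT1G67050 had 27.03, 21.8 and 21.4 CPM in 35S-ASCO, against 14.0, 15.5 and 17.8 CPM in WT (log2 fold change 0.57, edgeR adjusted p = 0.051, SE 0.121). It passed in edgeR with no filter, with single-read counts, without 35S-ASCO replicate 3 and without WT replicate 3. AT1G67000, a kinase gene, had 2.003 ± 0.376 CPM in 35S-ASCO and 0.964 ± 0.350 CPM in WT (1.07, edgeR adjusted p = 0.0856, SE 0.278). Changes of at least 2-fold were fitted for AT1G67000, CYP735A2 and AT1G67150, 4.62% of the flanking genes and 2.03% of all genes, and none of these 3 passed the edgeR threshold.

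**Figure D3:**
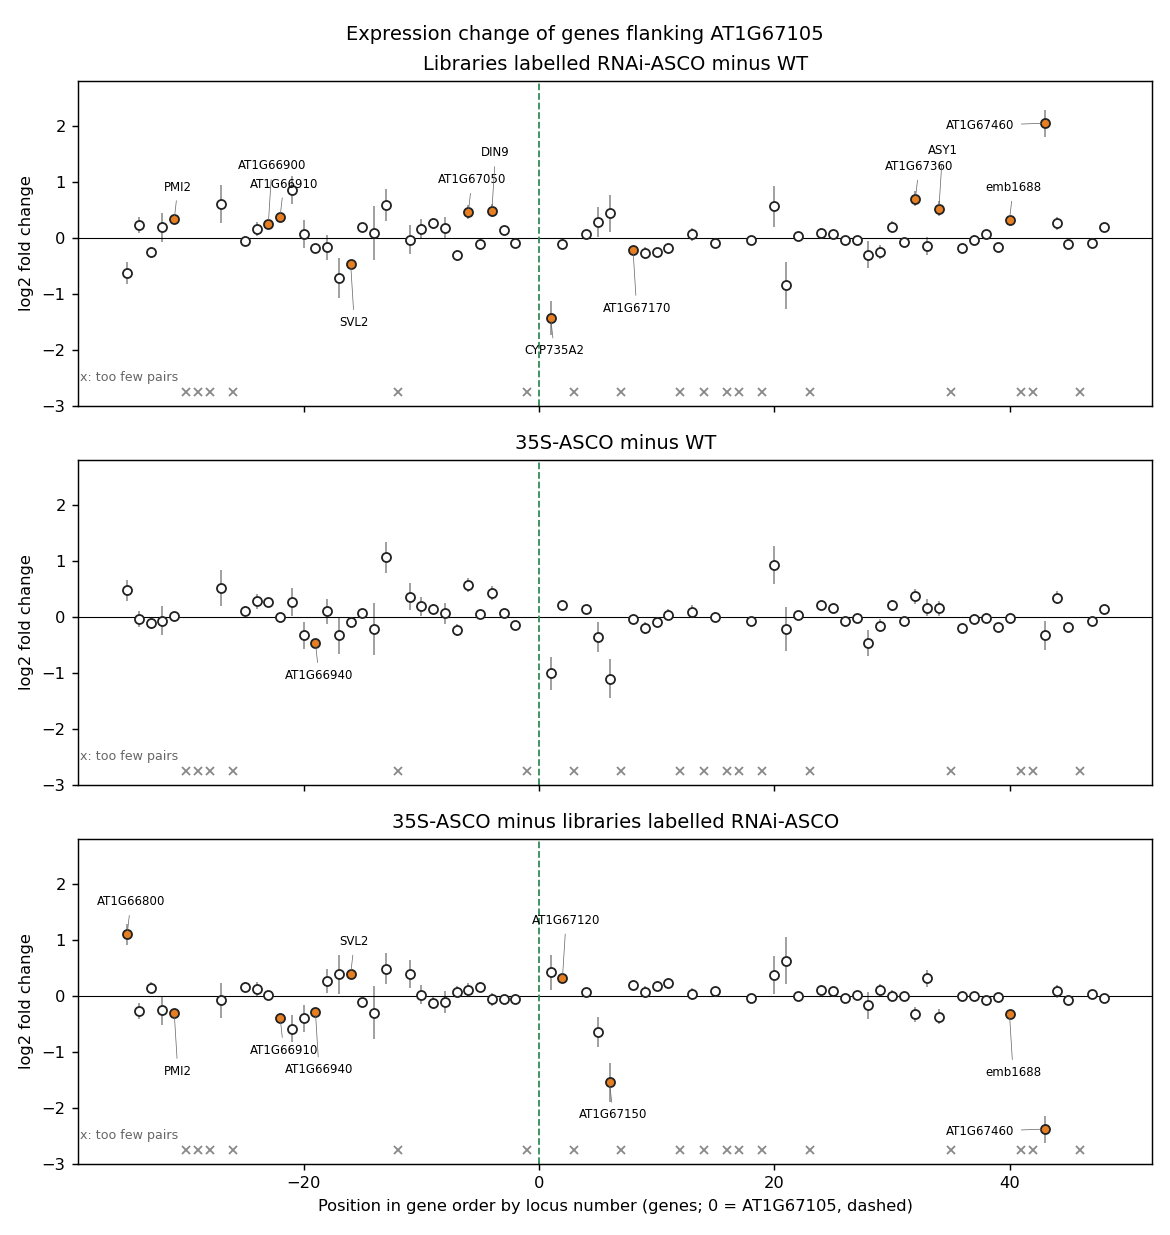
Log2 fold change (bars: ± SE) of each tested flanking gene against its position in gene order from AT1G67105 (dashed), for the RNAi-labelled libraries against WT (top), 35S-ASCO against WT (middle) and 35S-ASCO against the RNAi-labelled libraries (bottom); filled points passed an edgeR adjusted p of 0.05, and crosses mark models with too few pairs. The 12 filled points of the top panel lie from 31 genes before to 43 genes after AT1G67105, and the middle panel has 1.

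Between 35S-ASCO and the RNAi-labelled libraries the test called 9 of the 65 flanking genes (13.8%), beside 6.75% of all genes. Higher in 35S-ASCO were AT1G66800, SVL2 and AT1G67120 (3.2% of all genes were higher), and lower were PMI2, AT1G66910, AT1G66940, AT1G67150, emb1688 and AT1G67460 (3.55% of all genes were lower). In 18 of the 65 (27.7%) the groups did not overlap, beside 31.4% of all genes. AT1G66800, a Rossmann-fold gene and the first of the region, had 12.8, 10.7 and 11.1 CPM in 35S-ASCO, against 5.14, 5.98 and 5.01 CPM in the RNAi-labelled libraries. The difference was 1.102 on the log2 scale (edgeR adjusted p = 0.00988, SE 0.189), while WT, with 5.84, 7.88 and 10.9 CPM, overlapped both. AT1G67150, a DUF247 gene 6 genes after AT1G67105, had 0.333, 0.196 and 0.216 CPM in 35S-ASCO, against 0.416, 0.852 and 0.965 CPM in the RNAi-labelled libraries. These levels rest on 69 pairs in 35S-ASCO and 109 in the RNAi-labelled libraries, and the difference of -1.54 (edgeR adjusted p = 0.027, SE 0.343) was lost without 35S-ASCO replicate 2 or 3 or RNAi-ASCO replicate 2 or 3, where it was -1.46 to -1.32. WT had 0.661, 0.477 and 0.591 CPM, above all 35S-ASCO libraries, at -1.11 on the log2 scale in 35S-ASCO against WT (edgeR adjusted p = 0.143). The count of 9 was 4 (6.06%, beside 2.94% of all genes) without 35S-ASCO replicate 2, 4 (6.15%, beside 3.59%) without 35S-ASCO replicate 3, 5 (7.58%, beside 2.81%) without RNAi-ASCO replicate 1 and 3 (4.62%, beside 1.88%) without RNAi-ASCO replicate 2. With 16-day libraries alone it was 0, where 0.342% of all genes passed.

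Ordered by distance with both sides pooled, the sizes of change in the fit of all 9 libraries showed no steady decline away from AT1G67105. The sides differed, and the class within 5 positions held 4 tested genes before and 4 after AT1G67105. In the RNAi-labelled libraries against WT the median absolute log2 fold change was 0.12 for the 8 tested genes within 5 positions, 0.20 for the 16 at positions 6 to 15, 0.19 for the 22 at positions 16 to 30 and 0.19 for the 19 beyond, with 0.14 for all genes. The numbers that passed were 2 of 8, 2 of 16, 3 of 22 and 5 of 19, beside 11.8% of all genes. By side, the medians were 0.196, 0.221, 0.0918 and 0.17 after AT1G67105 and 0.122, 0.184, 0.255 and 0.256 before it. In 35S-ASCO against WT the pooled medians were 0.18, 0.16, 0.21 and 0.14 in the same order, with 0.10 for all genes. Of the same 8, 16, 22 and 19 genes, 0, 0, 1 and 0 passed, beside 1.67% of all genes. The medians were 0.286, 0.0868, 0.159 and 0.159 after AT1G67105 and 0.114, 0.217, 0.264 and 0.0713 before it. In 35S-ASCO against the RNAi-labelled libraries the pooled medians were 0.12, 0.12, 0.14 and 0.14, with 0.12 for all genes. Of the same 8, 16, 22 and 19 genes, 1, 1, 3 and 4 passed, beside 6.75% of all genes. In this comparison the medians fell with distance after AT1G67105 (0.372, 0.173, 0.0846 and 0.077) and did not before it (0.058, 0.114, 0.283 and 0.265). The median within 5 genes moved with the filter, to 0.21 in the RNAi-labelled libraries against WT and 0.24 in 35S-ASCO against those libraries when untested models were let in. It was 0.05 in 35S-ASCO against the RNAi-labelled library with 16-day libraries alone, and the other classes were not recomputed under these settings. Directions were nearly even in each comparison, with 34 of 65 genes higher and 31 lower in the RNAi-labelled libraries than in WT and 33 higher and 32 lower in 35S-ASCO than in WT. Median levels differed between the 4 distance classes (28.1, 8.57, 18 and 14.1 CPM, with 15.7 CPM for all genes), the comparisons share libraries, and neighbouring genes are not replicates, so these medians are descriptions with no test.

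**Figure D4:**
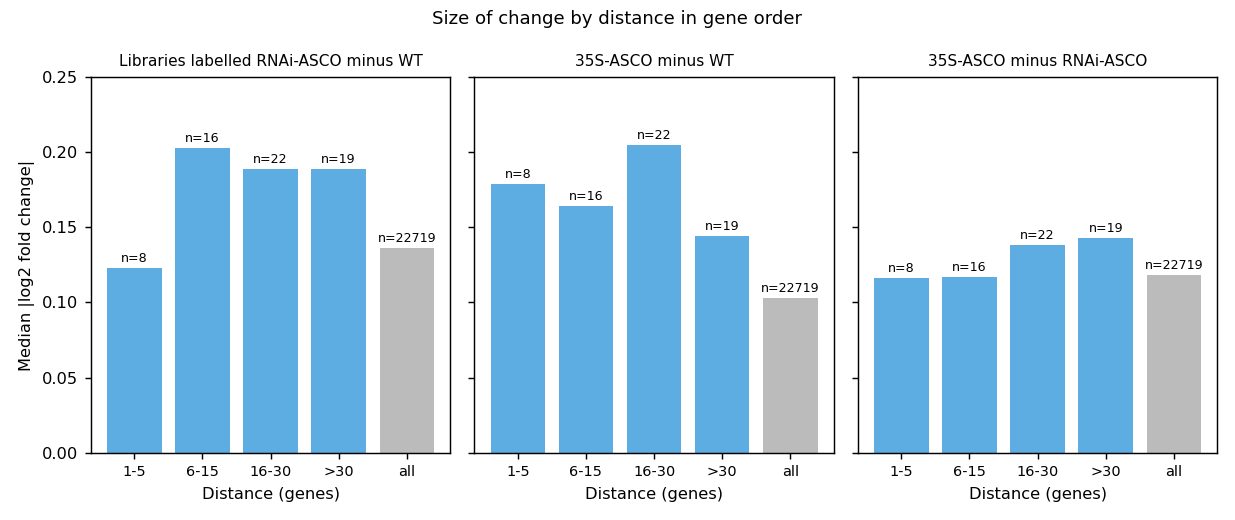
Median absolute log2 fold change of the tested flanking genes in 4 classes of distance in gene order from AT1G67105 (blue, number of genes above each bar) and of all genes tested (grey), for the 3 comparisons. Both sides are pooled, and the class within 5 genes, at 0.12, 0.18 and 0.12, is not the highest class in any panel of this fit. Among genes after AT1G67105 alone, not drawn, that class was the highest in 35S-ASCO against WT (0.286) and against the RNAi-labelled libraries (0.372). Among genes before AT1G67105 it was the highest in no comparison.

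At the edges of the region, the first flanking gene, AT1G66800, had 11.5 ± 1.15 CPM in 35S-ASCO, 5.38 ± 0.527 CPM in the RNAi-labelled libraries and 8.21 ± 2.55 CPM in WT, and AT1G66795, just outside, had 26 pairs over all libraries. The last, the DNA polymerase zeta subunit gene REV3 (AT1G67500), had 25.7 ± 0.663 CPM in 35S-ASCO, 26.4 ± 2.19 CPM in the RNAi-labelled libraries and 23.3 ± 0.509 CPM in WT. AT1G67510, just outside, had 12.5 ± 0.0475 CPM in 35S-ASCO, 13.4 ± 1.15 CPM in the RNAi-labelled libraries and 12.1 ± 0.329 CPM in WT.

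Genes that share a family or pathway with the nearest neighbours but lie elsewhere in the genome were looked at beside them. Of 12 genes of trans-zeatin synthesis besides CYP735A2, 11 were tested, and their median log2 fold change was -0.19 in the RNAi-labelled libraries against WT and 0.01 in 35S-ASCO against WT. LOG3, a cytokinin-activating enzyme, fell in the RNAi-labelled libraries to 3.27, 3.04 and 3.22 CPM, against 4.30, 4.49 and 4.74 CPM in WT (log2 fold change -0.51, edgeR adjusted p = 0.0232). IPT3, an isopentenyltransferase of the first step, fell in 35S-ASCO to 2.78, 2.35 and 3.35 CPM, against 5.47, 5.13 and 5.39 CPM in WT (-0.89, edgeR adjusted p = 0.0163). It was also lower in 35S-ASCO than in the RNAi-labelled libraries (-0.71, edgeR adjusted p = 0.0122). In each of the 3 comparisons 1 of the 11 tested genes passed as lower and 0 as higher. Of all genes, 4.82%, 0.313% and 3.55% were lower in the RNAi-labelled libraries against WT, 35S-ASCO against WT and between the lines. CYP735A1, the paralogue of CYP735A2, had 0.572 ± 0.0413 CPM in 35S-ASCO, 0.294 ± 0.177 CPM in the RNAi-labelled libraries and 0.382 ± 0.0778 CPM in WT and passed in neither. Among 5 other class II LBD genes, the family of LBD40, 4 were tested, and LBD39 fell in the RNAi-labelled libraries (-0.54, edgeR adjusted p = 0.0443). Their median was -0.19 in the RNAi-labelled libraries and -0.11 in 35S-ASCO, both against WT. None of the 3 other nuclear Rubisco small subunit genes passed, with a median of -0.09 in the RNAi-labelled libraries and -0.20 in 35S-ASCO, both against WT. In either direction, 11.8% of all genes passed in the RNAi-labelled libraries against WT and 1.67% in 35S-ASCO against WT. The lists are too small for their counts to be compared with the shares of all genes, and a link to the flanking genes was not tested.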

How the data were processed

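Whole seedlings of 3 genotypes were sequenced in 9 libraries, 3 per genotype, grouped by sample title. Per the labels' protocols, these were stranded TruSeq libraries of polyA RNA, read as pairs. The submitters' processing notes name TopHat2, Bowtie2 and TAIR10, without versions. Per the file headers, the authors made read and pair counts per gene model with sam2pkm, treated singletons as unmapped, set no insert size limit and removed reads with equal best and second-best scores, which lowers counts of near-identical genes. Use of strand in counting is not stated, so overlapping models (20 of the 83) are uncertain.

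The deposited pair counts of all 9 libraries were fitted with edgeR 4.0.16 in R 4.3.3 (glmQLFit and glmQLFTest, genotype only, TMM scaling, filterByExpr by group), which kept 22719 of 33602 models. Benjamini-Hochberg adjustment ran over these models, with a threshold of 0.05. Standard errors come from the F statistic, and levels are TMM-scaled CPM as mean ± SD. The fit was tested on simulated data. Names, order, positions and sequences come from RefSeq TAIR10.1, where 83 of 83 members were found. The counts are not tied to those coordinates, and 29 of the 84 model lengths equal a RefSeq transcript length.

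Named are the 5 nearest models on each side, all that passed in a comparison and the 10 highest in WT. AT1G66920, AT1G67000, SNC4 and AT1G67470 were chosen after their values were seen. The members and lists were chosen with earlier results of these data known. No pair of libraries agreed within sampling noise (variance at least 7.02 times that of sampling). Alternatives were DESeq2 1.42.0, other scalings and filters, the 6 libraries compared, the replicate number as a block, single-read counts, 16-day libraries only, and leaving out each library.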

Additional observations from a re-analysis of the deposited data

Results flagged for a closer look

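For 9 flanking genes, 35S-ASCO and the RNAi-labelled libraries differed from each other in the direct test, so that the changes from WT differ between the lines. The log2 difference of 35S-ASCO minus the RNAi-labelled libraries was -2.38 for AT1G67460, -1.54 for AT1G67150, -0.39 for AT1G66910, -0.33 for AT1G67440 (emb1688), -0.31 for AT1G66840 (PMI2) and -0.28 for AT1G66940. It was 1.1 for AT1G66800, 0.39 for AT1G66970 (SVL2) and 0.32 for AT1G67120. AT1G66800, SVL2 and AT1G67460 passed in all 9 fits that left out 1 library, and none of the 9 passed with 16-day libraries alone. The labelled age differs between the lines for RNAi-ASCO replicates 1 and 2, and its part was not tested.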

How the results depend on the processing

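With 16-day libraries only, 0 flanking genes passed in the RNAi-labelled libraries against WT and 0 in 35S-ASCO against the RNAi-labelled libraries, where 103 and 80 of all genes passed, and in 35S-ASCO against WT 64 of all genes passed. Among the values recomputed (those of the nearest genes, and of the genes that passed in the comparison where they passed), this setting reversed 3 that had not passed: AT1G67060 (0.0365 in the RNAi-labelled library against WT), and DIN9 (0.0142) and ABA4 (0.00079) in 35S-ASCO against that library. In 35S-ASCO against WT, DESeq2 called 6 flanking genes and 1315 of all genes, no filter and single-read counts 2 flanking genes each, and the 6 libraries alone 64 of all genes. Without a filter the median absolute log2 fold change within 5 genes was 0.21 in the RNAi-labelled libraries against WT and 0.24 in 35S-ASCO against those libraries. Leaving out 1 library gave 3 to 15 flanking and 995 to 3025 of all genes in the RNAi-labelled libraries against WT, 0 to 3 and 25 to 611 in 35S-ASCO against WT, and 3 to 9 and 432 to 1928 in 35S-ASCO against the RNAi-labelled libraries. AT1G67105 passed throughout. Same-numbered libraries correlated at -0.0963 to 0.126 in their deviations, and 3 of 9 correlated best with their own number. These values do not settle whether the numbers pair the libraries. With the replicate number as a block, 8 (all among the 12), 1 and 6 flanking genes passed in these 3 comparisons. Ordering by start coordinate swapped AT1G67328 and AT1G67330 and moved no median. The depth does not resolve the 18 untested models.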
